A study of Rattus norvegicus with 12 samples.

Results

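Fatty acids enter and leave the metabolism of a cell through a short series of proteins, and 6 genes of that series are described here in rat oligodendrocyte precursor cells (OPCs), the progenitors of the myelin-forming cells. They are Slc27a6, Mgll, Acot7, Hadh, Ehhadh and Aacs. Mgll, Slc27a6, Ehhadh and Hadh were found by their positions in the count tables, and Acot7 and Aacs by the study's own list of cytokine-responsive genes, joined to the tables through the mean count of each entry. These are 6 of the 30562 annotated genes, and all 6 were among the 13348 genes that were tested, those whose counts averaged 5 or more across the 12 libraries.

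A fatty acid is taken up with the help of transport proteins of the SLC27 family, or is released inside the cell from stored or membrane glycerides by lipases. It is joined to coenzyme A before use, and acyl-CoA thioesterases can split that bond again. Beta-oxidation then shortens the acyl-CoA in mitochondria and, for very long and some other chains, in peroxisomes. The acetyl-CoA that results can be burned, turned into ketone bodies, or made again from acetoacetate for the synthesis of fatty acids and sterols. Cells of the oligodendrocyte lineage draw on these routes for the lipids of myelin.

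RNA was sequenced in 12 libraries, 3 for each of 4 groups, from wild-type cortical OPCs of newborn rats of both sexes, which the labels give as postnatal day 2 and pooled. All groups spent 3 days in proliferation medium and were then moved to differentiating medium. CTL received the vehicle DMSO and no cytokine, and GAL received 10 nM galinex, an agonist of the receptor GPR17, without cytokines. CTK-2 received 2 ng/mL of each of the cytokines IFN-γ, TNF-α and IL-1β and then, after 6 h, the vehicle, whereas CTK2+GAL received the same cytokines and, after 6 h, 10 nM galinex. RNA was taken 24 h after galinex or vehicle. The cells came from shaken mixed glial flasks, so other glia can remain, and nothing states whether the 3 libraries of a group came from separate cultures. P-values therefore measure the spread between these libraries, which may be technical.

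The library totals lay between 2600797 and 8978185 counts, the lowest in GAL replicate 1 and the next at 4718825. The OPC markers with a symbol, 3 of 8 (Pdgfra, Cspg4, Ptprz1), summed to between 2235 and 2500 CPM (counts scaled to the TMM-normalized library size) without cytokines and to between 3926 and 4227 CPM with them. Markers of microglia with a symbol, 4 of 13 (Csf1r, P2ry12, C1qc, Ptprc), summed to between 2.24 and 10.5 CPM without cytokines and to between 18.5 and 24.3 CPM with them. The leukocyte marker Ptprc had no count in CTL replicate 2, GAL replicate 1 and GAL replicate 2. Of 8 markers of maturing oligodendrocytes, 2 have a symbol (Mag, Mog) and summed to between 158 and 204 CPM without cytokines and to between 75.6 and 91.4 CPM with them. The other lists had 1 astrocyte marker of 8, Aldoc, 1 fibroblast and vessel marker of 7, Col1a2, and 0 of 6 neuron markers with a symbol. Aldoc was at 229 to 286 CPM without cytokines and at 152.2 to 168 CPM with them, and Col1a2 at 0.688 to 1.94 and at 4.86 to 7.97 CPM. The part of any cell type in the results that follow was not tested. In bulk RNA, fewer cells that express a gene and less RNA of it per cell cannot be told apart.

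The 6 genes lie on 6 chromosomes of mRatBN7.2, the rat genome build of the count tables. Their promoter windows, the 250 bases before the RefSeq transcription start in the build GRCr8, are shown for the 2 genes with the steepest decrease, Mgll and Slc27a6, and for 2 with a smaller one, Ehhadh and Acot7. Capitals mark every match to the sequences searched for, on either strand.
Mgll, chr4:122749186-122749435, plus strand: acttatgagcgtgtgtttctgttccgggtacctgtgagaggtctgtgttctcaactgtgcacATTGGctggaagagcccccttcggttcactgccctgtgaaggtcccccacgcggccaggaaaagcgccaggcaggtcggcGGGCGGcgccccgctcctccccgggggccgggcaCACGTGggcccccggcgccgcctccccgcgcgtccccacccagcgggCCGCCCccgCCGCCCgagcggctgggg
Slc27a6, chr18:54238797-54239046, plus strand: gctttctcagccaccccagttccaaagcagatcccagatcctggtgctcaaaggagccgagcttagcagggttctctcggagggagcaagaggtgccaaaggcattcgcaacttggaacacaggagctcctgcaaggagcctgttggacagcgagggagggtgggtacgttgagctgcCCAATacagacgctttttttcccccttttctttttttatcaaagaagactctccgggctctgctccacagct
Ehhadh, chr11:92746159-92746408, plus strand: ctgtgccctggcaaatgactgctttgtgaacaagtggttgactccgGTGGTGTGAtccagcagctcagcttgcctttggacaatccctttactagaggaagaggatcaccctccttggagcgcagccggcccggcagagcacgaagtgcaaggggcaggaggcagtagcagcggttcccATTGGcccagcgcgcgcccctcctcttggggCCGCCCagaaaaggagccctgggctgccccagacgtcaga
Acot7, chr5:167969152-167969401, plus strand: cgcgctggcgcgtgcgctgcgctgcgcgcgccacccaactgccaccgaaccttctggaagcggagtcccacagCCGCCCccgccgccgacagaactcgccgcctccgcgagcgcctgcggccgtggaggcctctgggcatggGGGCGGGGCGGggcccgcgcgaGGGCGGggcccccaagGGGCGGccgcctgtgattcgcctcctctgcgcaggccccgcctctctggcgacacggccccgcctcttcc

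The searched sequences were the GC box GGGCGG, the CCAAT box, the E-box CACGTG, the TATA box TATAAA, the sterol element TCACNCCAC, the nuclear receptor site AGGTCA and the interferon gamma-activated site TTCNNNGAA. Mgll had 3 GC boxes, 1 CCAAT box and 1 E-box, which 5.59% of all 33469 windows of this length hold. Slc27a6 had 1 CCAAT box and no GC box. Ehhadh had 1 GC box, 1 CCAAT box and 1 sterol element, a sequence in 0.974% of windows. The first of 2 Acot7 windows had 5 GC boxes, of which a pair shares 1 base, and the second had no match. Hadh had 3 GC boxes and the Aacs window no match. GC boxes occur in 30.5% and CCAAT boxes in 34.0% of all windows. None of the member windows held the nuclear receptor site, the TATA box or the interferon gamma-activated site, which are in 14.1%, 12.9% and 7.67% of all windows. The G and C content was 72.4% for Mgll, 54.4% for Slc27a6, 62.0% for Ehhadh, 64.0% for Hadh, 78.4% for the first window of Acot7 and 64.8% for Aacs, against a median of 51.2% over all windows. These matches are letters in a window and were not tested for binding.

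The first question was how the cytokines changed these genes. All 6 stood lower under CTK-2 than under CTL and all 6 were called, their log2 fold changes running from -3.41 to -0.62 around a median of -0.96. A gene was called at an edgeR quasi-likelihood p, adjusted by Benjamini-Hochberg, up to 0.05 together with a log2 fold change of 0.59 or more in size. Of all genes tested, 5.79% were called lower in this comparison and 17.3% were called in either direction. Symbols exist here only for genes that the study had called on these same libraries, so this count is not independent evidence of the direction. Of the 1746 genes with a symbol, 33.2% were called lower, and the median over all genes tested was 0.00. CTK2+GAL versus GAL compares 6 other libraries, in which the cytokines were given with galinex in both arms. All 12 libraries were in 1 fit, and the members were chosen with earlier results of these data known. This comparison is therefore not independent evidence of the direction either. There, again, all 6 were lower, around a median of -0.88, and 5 were called, where 5.74% of all genes tested and 26.8% of those with a symbol were called lower. The exception was Acot7, whose adjusted p passed the threshold while its fold change did not. In both comparisons, every cytokine-treated library lay below every untreated library for all 6 genes, which was so for 23.8% and 24.0% of all genes tested.

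**Figure D1:**
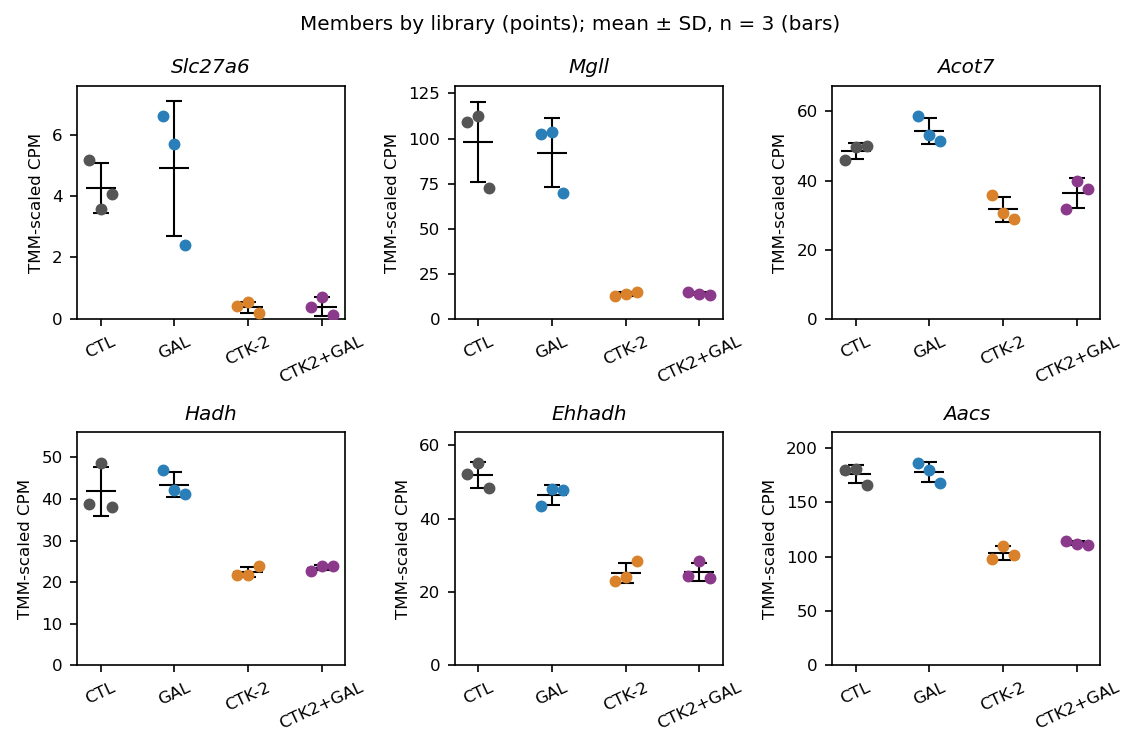
Levels of the 6 genes in TMM-scaled CPM (vertical axis, from 0) by group. Points are libraries, and the black marks are the mean ± SD (n = 3). Mgll lies between 69.95 and 112.3 CPM without cytokines and between 12.5 and 14.8 CPM with them.

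Slc27a6 encodes a fatty acid transport protein of the SLC27 family, on chromosome 18 from 52041074 to 52099414, plus strand, with 2603 exonic bases. It was the member with the lowest level and the fewest counts. Its counts were 30, 18 and 25 in the CTL libraries, 17, 34 and 14 in GAL, 2, 3 and 1 in CTK-2, and 2, 4 and 1 in CTK2+GAL. No library with cytokines had more than 4 counts and none without had fewer than 14. In TMM-scaled CPM, the level was 4.26 ± 0.813 in CTL, 4.90 ± 2.20 in GAL, 0.383 ± 0.183 in CTK-2 and 0.403 ± 0.2999 in CTK2+GAL (SD, n = 3). Summed over the libraries, CTK-2 had 6 counts against 73 in CTL, which is 8.92% of the CTL level after scaling (95% exact interval 3.17 to 20.4%, counting error only). CTK2+GAL had 7 counts against 65 in GAL, or 7.81% (3.02 to 17.0%). The fitted log2 fold changes were -3.41 (SE 0.55, adjusted p = 6.2e-05) and -3.61 (SE 0.53, adjusted p = 2.3e-05). No other gene tested had a lower fitted value in either comparison, a description that is no support for the decrease. Slc27a6 passed the filter of 5 counts on average only through its libraries without cytokines. Genes under that filter were not ranked. In CTK2+GAL versus GAL the fitted value was -4.30 without CTK2+GAL replicate 2 and -3.00 without CTK2+GAL replicate 3. At this depth the size of the decrease is known only within these intervals.

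Mgll encodes monoacylglycerol lipase, which releases a fatty acid and glycerol from monoacylglycerols, the endocannabinoid 2-arachidonoylglycerol among them. It lies on chromosome 4 from 121192195 to 121294179, plus strand, with 4305 exonic bases in 9 blocks. Its level was 109, 112.3 and 72.3 CPM in the CTL libraries, 102, 104 and 69.95 in GAL, 12.5, 13.99 and 14.6 in CTK-2, and 14.8, 13.7 and 13.4 in CTK2+GAL. The cytokine groups were far below the others and close to each other. In CTK-2 the fitted level was 14.1% of that in CTL, a log2 fold change of -2.82 (SE 0.188, 95% interval -3.22 to -2.43, adjusted p = 1.1e-09). With galinex in both arms the log2 fold change was -2.71 (SE 0.184, -3.10 to -2.32, adjusted p = 1.5e-09). Of the 13348 genes tested, 4 and 9 had a lower fitted value, a description only, since the members were chosen with earlier results known. Mgll was the member with the widest spread in CTL, where replicate 3 held 65.3% of the mean of the other two libraries, and GAL replicate 3 held 67.8%. In the same libraries the 4 microglial markers summed to 9.73 and 10.5 CPM, against 2.24 to 4.37 CPM in the other CTL and GAL libraries. The part of those cells in the Mgll level was not tested. Without both libraries the log2 fold changes were -3.00 and -2.90.

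Acot7 encodes an acyl-CoA thioesterase that hydrolyses long-chain acyl-CoA and is abundant in brain. It lies on chromosome 5 from 162684645 to 162779309, plus strand, with 3866 exonic bases. It had the smallest difference of the 6 genes. The libraries held 45.9, 49.7 and 50.1 CPM in CTL, 58.6, 53.1 and 51.6 in GAL, 35.8, 30.5 and 28.9 in CTK-2, and 31.7, 39.9 and 37.7 in CTK2+GAL. All libraries with cytokines were below all those without. The log2 fold change was -0.62 in CTK-2 versus CTL (SE 0.099, adjusted p = 6.3e-05) and -0.55 in CTK2+GAL versus GAL (SE 0.096, adjusted p = 1.3e-04), on either side of the fold change threshold of 0.59. The first value fell short of that threshold with total counts in place of TMM, at -0.585, and without CTK-2 replicate 3, at -0.56. The second passed it without CTK2+GAL replicate 2, at -0.62.

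Hadh and Ehhadh both encode enzymes of the hydroxyacyl-CoA dehydrogenase step of beta-oxidation, Hadh in mitochondria and Ehhadh, as a bifunctional enzyme that is also a hydratase, in peroxisomes. Hadh lies on chromosome 2 from 219787927 to 219830353, minus strand, with 1685 exonic bases, and Ehhadh on chromosome 11 from 79241938 to 79275188, plus strand, with 3386. The Hadh libraries held 38.7, 48.7 and 38.1 CPM in CTL, 46.9, 42.2 and 41.2 in GAL, 21.8, 21.6 and 23.9 in CTK-2, and 22.7, 23.8 and 23.8 in CTK2+GAL. For Ehhadh the values were 52.1, 55.2 and 48.3 CPM in CTL, 43.5, 48.1 and 48.0 in GAL, 23.0, 24.2 and 28.3 in CTK-2, and 24.5, 28.4 and 23.8 in CTK2+GAL. The cytokine groups of both genes reached at most 28.4 CPM, and the others held at least 38.1 CPM. Hadh fell to 53.9% of its CTL level, a log2 fold change of -0.89 (SE 0.106, adjusted p = 2.0e-06), and in CTK2+GAL to 54.8% of its GAL level, a log2 fold change of -0.87 (SE 0.104, adjusted p = 2.2e-06). Ehhadh fell to 48.7% of its CTL level (log2 fold change -1.04, SE 0.098, adjusted p = 1.1e-07) and in CTK2+GAL to 54.1% of its GAL level (-0.89, SE 0.099, adjusted p = 9.2e-07). Per exonic length, the level of Ehhadh was 0.622 ± 0.0533 times that of Hadh in CTL, 0.535 ± 0.0649 in GAL, 0.558 ± 0.0320 in CTK-2 and 0.543 ± 0.0486 in CTK2+GAL (SD, n = 3), and these ranges overlapped between CTL and CTK-2.

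Aacs encodes acetoacetyl-CoA synthetase, the cytosolic enzyme that activates the ketone body acetoacetate for lipid synthesis. It lies on chromosome 12 from 31113098 to 31160954, minus strand, with 3297 exonic bases. It had the highest level of the 6 genes in every group, both in CPM and per length. The CTL libraries held 180, 181 and 166 CPM, the GAL libraries 186, 180 and 168, the CTK-2 libraries 97.5, 109.9 and 102, and the CTK2+GAL libraries 115, 111 and 111. The groups with cytokines formed a narrow band well under the others. The log2 fold change was -0.77 in CTK-2 versus CTL (SE 0.062, adjusted p = 1.4e-08) and -0.66 in CTK2+GAL versus GAL (SE 0.062, adjusted p = 9.7e-08). These were the smallest standard errors among the members, at 1620 to 2982 counts summed over the 3 libraries of a group.

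**Figure D2:**
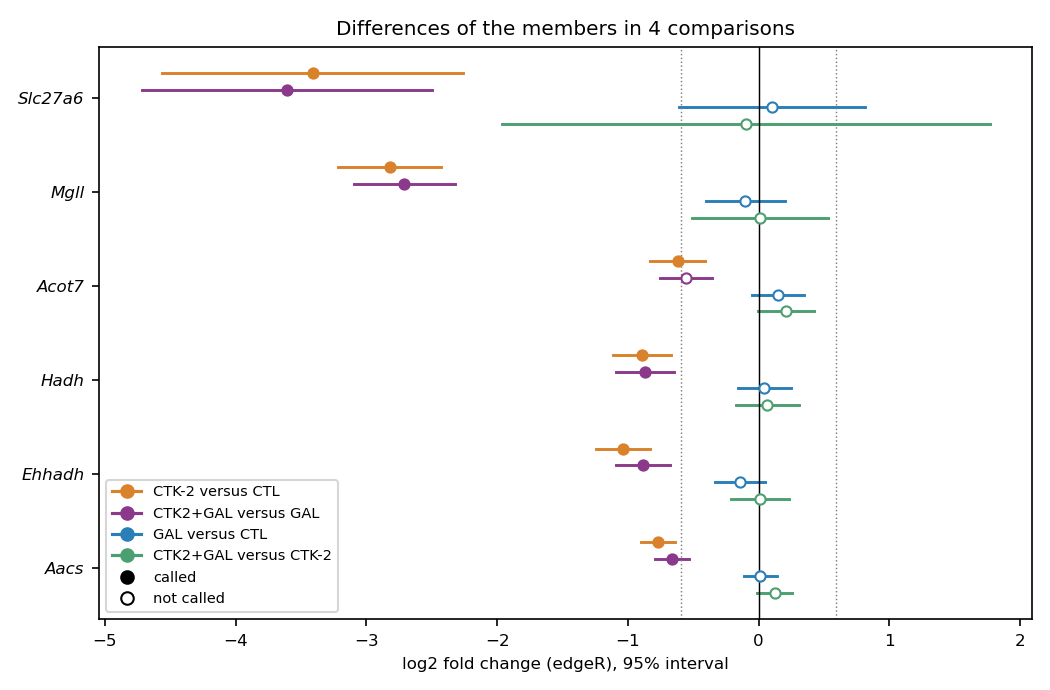
Log2 fold changes (horizontal axis) with 95% intervals for the 6 genes in 4 comparisons. Filled points were called, open points were not, and dotted lines mark the fold change threshold of 0.59 in both directions. The cytokine comparisons of Slc27a6 and Mgll lie at or below -2.71, and the galinex comparisons of all 6 genes lie between -0.14 and 0.21.

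The 6 decreases fell into 2 ranges. In CTK-2 versus CTL, the 95% intervals of Mgll and Slc27a6 reached no higher than -2.26, and those of Ehhadh, Hadh, Aacs and Acot7 no lower than -1.24. The profiles over the 12 libraries, taken as log2 CPM centred on each gene's mean with 0.5 CPM added, gave the same split as a description. The root mean square difference was 0.361 between Mgll and Slc27a6 and between 0.125 and 0.26998 among the other 4 genes, while it was between 0.876 and 1.09 across the split. All these profiles share the same libraries. The 0.5 CPM added exceeds the mean of Slc27a6 with cytokines, 0.383 CPM in CTK-2 and 0.403 CPM in CTK2+GAL, so its differences are compressed.

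On the scale of exonic length, the order of the genes differed between the groups. In RPKM, the TMM-scaled CPM divided by the exonic kilobases, the CTL order was Aacs at 53.3 ± 2.51, Hadh at 24.8 ± 3.53, Mgll at 22.7 ± 5.16, Ehhadh at 15.3 ± 1.03, Acot7 at 12.6 ± 0.593 and Slc27a6 at 1.64 ± 0.312 (SD, n = 3). Only Hadh and Mgll overlapped as neighbours in that order. In CTK-2, Mgll was the fifth, at 3.19 ± 0.248 RPKM, below Acot7 at 8.21 ± 0.927 and Ehhadh at 7.43 ± 0.830, which overlapped each other. Aacs at 31.3 ± 1.92 RPKM and Hadh at 13.3 ± 0.759 remained above them, and Slc27a6 was the lowest at 0.147 ± 0.0701. The order in CTK2+GAL was that of CTK-2, with Mgll at 3.24 ± 0.169 RPKM. In GAL, Acot7 at 14.1 ± 0.955 and Ehhadh at 13.7 ± 0.777 RPKM overlapped, and the other neighbours did not.

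**Figure D3:**
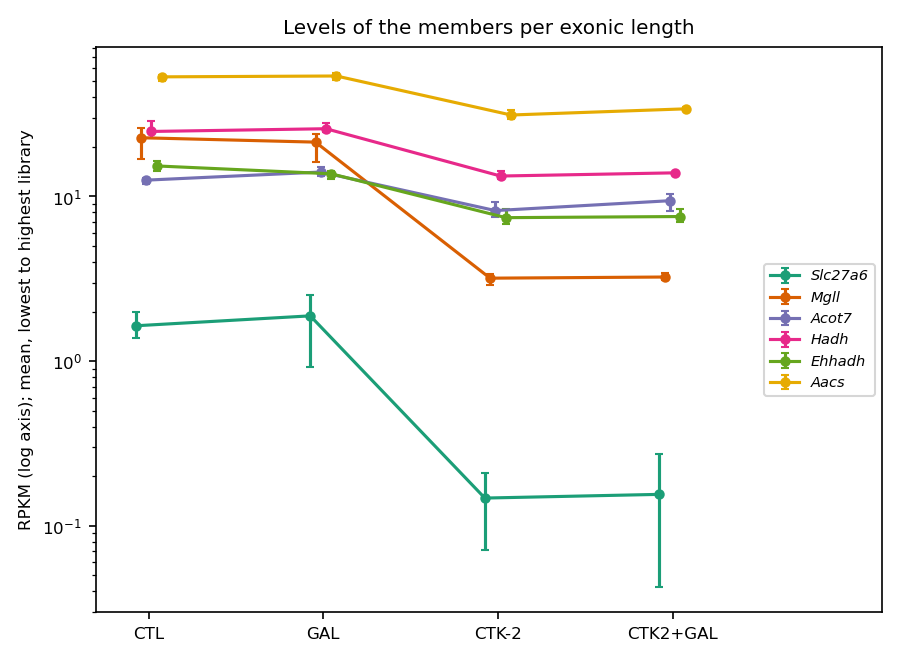
Levels per exonic length in RPKM (vertical log axis) in the 4 groups. Points are means and the bars run from the lowest to the highest of 3 libraries. Mgll moves from 22.7 RPKM in CTL, near Hadh, to 3.19 RPKM in CTK-2, below Ehhadh and Acot7.

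The second question was whether galinex changed the 6 genes, with or without cytokines. No member was called in either galinex comparison, and 0 of 13348 genes tested were called in CTK2+GAL versus CTK-2 or in GAL versus CTL. The background was therefore 0.0%. An unadjusted p under 0.05 was found for 545 and 574 genes, below the share of 0.05 expected with no difference at all. DESeq2 and limma also called 0 genes in both comparisons. In CTK2+GAL versus CTK-2 the log2 fold changes were 0.01 for Mgll (95% interval -0.51 to 0.53), -0.10 for Slc27a6 (-1.96 to 1.77), 0.01 for Ehhadh (-0.21 to 0.24), 0.07 for Hadh (-0.17 to 0.31), 0.21 for Acot7 (-0.002 to 0.43) and 0.12 for Aacs (-0.01 to 0.26). The upper limit of each interval was smaller than the fitted decrease of the same gene in CTK-2 versus CTL. That decrease has an error of its own, and both comparisons share the CTK-2 libraries. For Acot7 the decrease had a 95% interval of -0.83 to -0.41. In size this overlaps the galinex interval, so a full return cannot be told apart from a partial one for Acot7. For Slc27a6 the few counts leave a wide range. The 3 Aacs libraries of CTK2+GAL, at 111 to 115 CPM, lay above the 3 of CTK-2, at 97.5 to 109.9 CPM, with an unadjusted p of 0.068 and an adjusted p of 0.9999, and groups without overlap in either direction were found for 11.5% of all genes tested.

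Without cytokines, the log2 fold changes in GAL versus CTL were -0.10 for Mgll (-0.40 to 0.20), 0.10 for Slc27a6 (-0.61 to 0.81), -0.14 for Ehhadh (-0.33 to 0.05), 0.04 for Hadh (-0.16 to 0.25), 0.15 for Acot7 (-0.05 to 0.34) and 0.01 for Aacs (-0.11 to 0.14). The Ehhadh libraries of GAL lay below those of CTL and the Acot7 libraries above them without overlap, which 8.32% of all genes tested did in either direction. Averaged over both backgrounds, a contrast chosen after seeing the data, galinex gave Acot7 a log2 fold change of 0.18 (95% interval 0.03 to 0.32, unadjusted p = 0.018, adjusted p = 0.76), which did not pass the test. The other 5 genes lay between -0.07 and 0.07 in that contrast. The interaction, which asks whether the cytokine effect differed with galinex, ran from -0.20 to 0.15 among the members. Its smallest unadjusted p was 0.23, with adjusted p-values of 0.99999. Of all genes tested 0 were called, and 376 had an unadjusted p under 0.05, below the share of 0.05 expected with no difference.

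The other genes of these routes were taken from 7 lists with 157 symbols in all. Of these, 25 besides the members have a symbol here, and since only cytokine-responsive genes of the study carry one, the lists hold no gene that it had not called. In CTK-2 versus CTL, 16 were higher and 9 lower, and the median log2 fold change was 0.83. In CTK2+GAL versus GAL, 14 were called higher and 9 lower, and 2 were not called, with a median of 0.88. Of the 1746 genes with a symbol, 64.8% were called higher and 33.2% lower in the first comparison, and 58.6% and 26.8% in the second. Over all genes tested these shares were 11.5% and 5.79%, and 11.7% and 5.74%. The median over all genes tested was 0.00 and 0.01. No gene of these 25 was called in either galinex comparison.

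**Figure D4:**
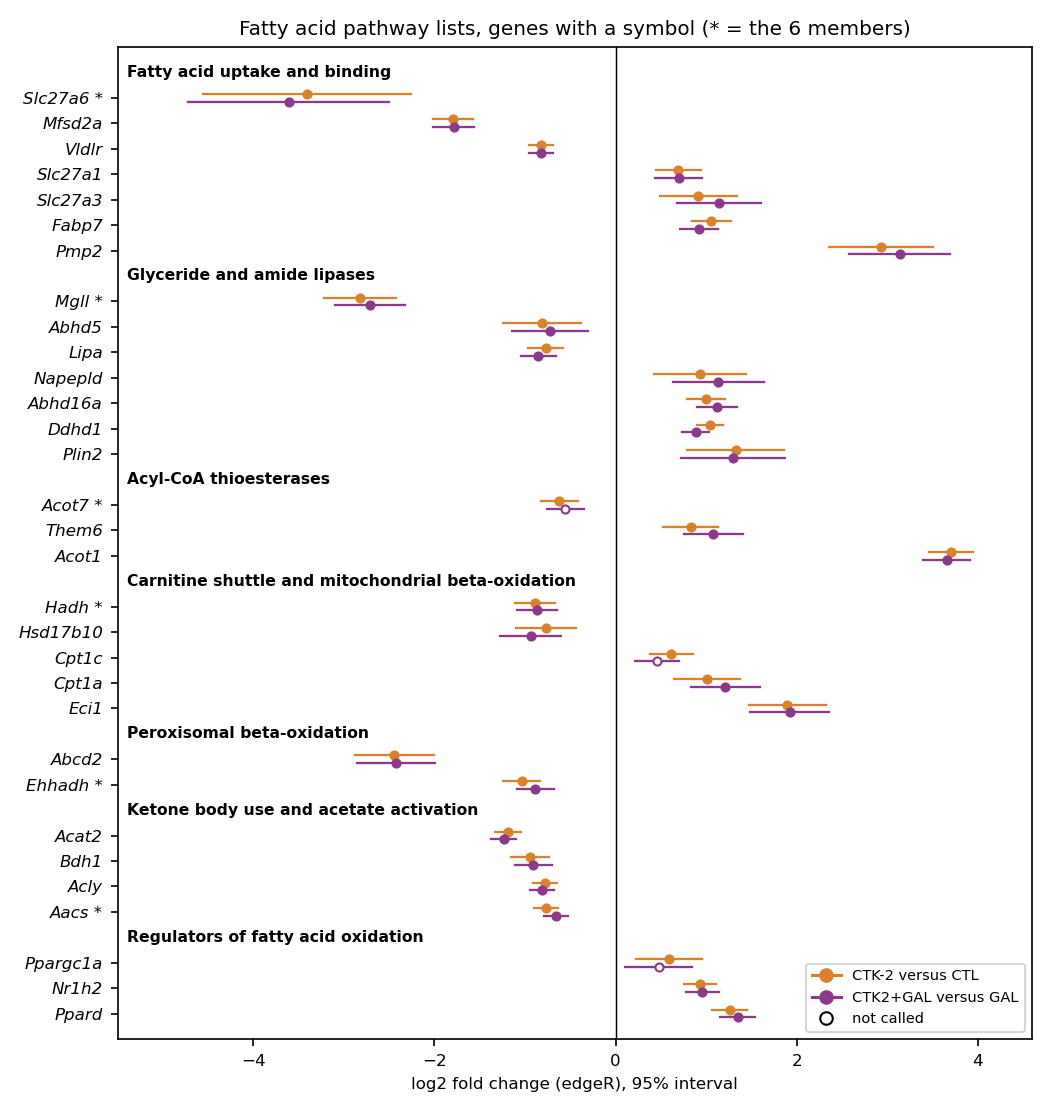
Log2 fold changes (horizontal axis) with 95% intervals of the list genes with a symbol, members marked by an asterisk, in the 2 cytokine comparisons. Open points were not called. Genes of the ketone body list all lie below 0, and the other lists with several genes, apart from the peroxisomal genes and the regulators, hold both directions.

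In uptake and binding, 7 of 24 genes have a symbol, 3 lower and 4 higher in CTK-2. Beside Slc27a6, the lower ones were the lipoprotein receptor gene Vldlr (log2 fold change -0.82, SE 0.063) and Mfsd2a (-1.79, SE 0.107), the transporter of lysophosphatidylcholine that carries docosahexaenoic acid. The higher ones included Pmp2, a fatty acid-binding protein of myelin, which rose from 1.56 ± 0.964 to 12.2 ± 1.24 CPM (SD, n = 3; log2 fold change 2.93, SE 0.27). Without CTL replicate 3, where Pmp2 stood at 2.59 CPM, the log2 fold change was 3.56. Among the 3 SLC27 genes with a symbol, Slc27a1 (0.69, SE 0.119) and Slc27a3 (0.92, SE 0.201) rose while Slc27a6 fell. The rest of the family was not analysed by name, so the shares that follow are not shares of the whole family. Per length, Slc27a6 made up 17.9 ± 4.89% of the summed level of these 3 genes in CTL and 1.09 ± 0.566% in CTK-2, and 21.2 ± 7.41% in GAL and 1.18 ± 0.779% in CTK2+GAL. The summed level of the 3 was 9.29 ± 0.715 RPKM in CTL and 13.7 ± 0.841 RPKM in CTK-2.

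Of the lipases and their partners, 7 of 23 have a symbol, 3 lower and 4 higher. Mgll had the lowest value. Lipa, the acid lipase of lysosomes (-0.77, SE 0.093), and Abhd5, the activator of adipose triglyceride lipase (-0.81, SE 0.205), were also lower, and Abhd5 was named after its values were seen. The phospholipase Ddhd1 (1.04, SE 0.068), Abhd16a, a hydrolase of phosphatidylserine (0.999, SE 0.099), and Napepld, which releases N-acylethanolamines (0.93, SE 0.24), were higher. Plin2 had the highest value of the list (1.33, SE 0.25, and 1.30 in CTK2+GAL versus GAL) and was also named after its values were seen. Abhd5 did not pass the fold change threshold in CTK2+GAL versus GAL without CTK2+GAL replicate 1 or without GAL replicate 2, at -0.587 and -0.554.

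Of the acyl-CoA thioesterases, 3 of 18 have a symbol. Acot7 was lower, and Acot1, a cytosolic thioesterase of long-chain acyl-CoA, and Them6 were higher. Acot1 stood at 5.72 CPM in CTL and rose to 75.3 CPM in CTK-2, a log2 fold change of 3.70 (SE 0.118), and from 5.64 CPM in GAL to 72.7 CPM in CTK2+GAL (3.66, SE 0.123). Per length, Acot1 stood at 3.39 ± 0.406 RPKM and Acot7 at 12.6 ± 0.593 RPKM in CTL, and in CTK-2 at 44.7 ± 3.12 and 8.21 ± 0.927 RPKM (SD, n = 3), so that the order of the 2 genes turned. Acot1 has near-identical neighbours in its gene cluster, and read pairs that mapped to several places were not counted, so its level is uncertain. Them6 had a log2 fold change of 0.83 (SE 0.144) and shares 938 exonic bases with another gene on its strand, where pairs were not counted.

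**Figure D5:**
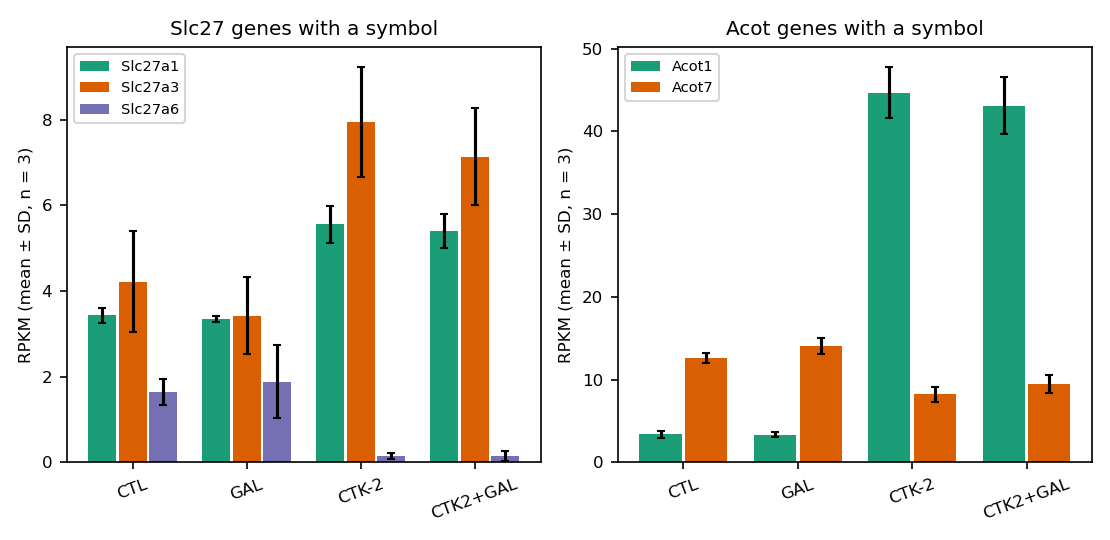
Levels per exonic length in RPKM (vertical axes, from 0) of the Slc27 and Acot genes with a symbol, as bars of the mean with SD (n = 3). Slc27a6 falls from 1.64 to 0.147 RPKM between CTL and CTK-2 while Slc27a1 and Slc27a3 rise, and Acot1 rises from 3.39 to 44.7 RPKM while Acot7 falls.

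In mitochondrial beta-oxidation and the carnitine shuttle, 5 of 31 genes have a symbol, 2 lower and 3 higher. With Hadh, the lower gene was Hsd17b10, another mitochondrial dehydrogenase of the hydroxyacyl-CoA step, at -0.77 (SE 0.158), which was not called without CTL replicate 2, at -0.54. It shares 13 exonic bases with another gene on its strand. Cpt1a, the carnitine palmitoyltransferase 1 gene whose enzyme commits acyl-CoA to the mitochondrion, was higher, at 1.01 (SE 0.175). CTL replicate 3 and GAL replicate 3 held 154% and 178% of the Cpt1a mean of the other libraries of their group. Leaving out 1 library gave Cpt1a values of 0.90 to 1.26 in CTK-2 versus CTL and 1.07 to 1.55 in CTK2+GAL versus GAL. The related gene Cpt1c, to which that role is not given here, was also higher, at 0.62 (SE 0.111). Cpt1c was not called in CTK2+GAL versus GAL, at 0.46, or in CTK-2 versus CTL without CTL replicate 1 or 2 or CTK-2 replicate 1, at 0.55 to 0.57. Eci1, the enoyl-CoA isomerase for unsaturated chains, rose from 4.97 to 18.4 CPM (1.90, SE 0.202).

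Of the peroxisomal genes, 2 of 24 have a symbol, and both were lower. Ehhadh is described above, and Abcd2, a transporter of very long-chain acyl-CoA into the peroxisome, fell from 28.3 to 5.16 CPM in CTK-2, a log2 fold change of -2.44 (SE 0.208), and from 27.8 to 5.10 CPM in CTK2+GAL (-2.42, SE 0.204). CTL replicate 3 and GAL replicate 3 held 68.7% of the Abcd2 mean of the other libraries of their group, as they did for Mgll at 65.3% and 67.8%. For Ehhadh the same libraries held 90.0% and 105%. Without both libraries the Abcd2 values were -2.61 in both comparisons.

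Of the ketone body and acetate genes, 4 of 17 have a symbol, and all 4 were lower in both cytokine comparisons, where 33.2% and 26.8% of the genes with a symbol, and 5.79% and 5.74% of all genes tested, were called lower. Beside Aacs these were Bdh1, the mitochondrial hydroxybutyrate dehydrogenase, at -0.94 (SE 0.099), Acat2, the cytosolic acetoacetyl-CoA thiolase, at -1.19 (SE 0.068), and Acly, ATP citrate lyase, at -0.78 (SE 0.063). Their median log2 fold change with Aacs was -0.86 in both comparisons. Of 22 regulators, 3 have a symbol, and they were higher. Ppard, a nuclear receptor that binds fatty acids, had a log2 fold change of 1.26 (SE 0.090), and the oxysterol receptor gene Nr1h2 one of 0.93 (SE 0.085). Ppargc1a, a coactivator of these receptors, was at the threshold, with 0.59 (SE 0.175, adjusted p = 0.012) in CTK-2 versus CTL, and was not called in CTK2+GAL versus GAL, at 0.48. It also lost its call in CTK-2 versus CTL under 6 alternatives, among them without CTL replicate 1 or 2 and without CTK-2 replicate 2 or 3, at 0.51 to 0.58.

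Among genes with a symbol, those whose centred profile over the 12 libraries lay nearest to each member were named by the root mean square difference in log2 CPM. For Mgll they were Acan, the proteoglycan aggrecan, at 0.154, and the receptor gene Erbb3, at 0.161. For Slc27a6 they were Matn4, a matrilin, at 0.327, and Mgll itself, at 0.361. For Ehhadh they were the peptide transporter gene Slc15a4, at 0.0911, and Pycr1, of proline synthesis, at 0.0953. The nearest to Hadh were Mvd, of the mevalonate pathway, at 0.0591, and Tmem181, at 0.0742. The nearest to Acot7 were the deubiquitinase gene Usp46, at 0.101, and Pcyt1a, of phosphatidylcholine synthesis, at 0.114. The nearest to Aacs were the monoamine oxidase gene Maoa, at 0.0436, and Gpat4, a glycerol-3-phosphate acyltransferase, at 0.0558. Genes without a symbol were nearer than the named one in 1 case of the first neighbours, that of Acot7. The 0.5 CPM added for these profiles exceeds the Slc27a6 means of 0.383 CPM in CTK-2 and 0.403 CPM in CTK2+GAL. The profile of Slc27a6 is compressed by that, so its neighbours depend on the added value.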

How the data were processed

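RNA of rat OPC cultures was sequenced in 12 libraries. The authors deposited raw counts of read pairs per gene for each library, neither normalized nor filtered. The authors give FastQC, STAR and DESeq2, and the file headers name featureCounts 2.0.0 with Ensembl release 112 on mRatBN7.2. Pairs were counted with strand, and pairs mapping to several places were left out. Genes averaging 5 or more counts were fitted in edgeR 4.0.16 (R 4.3.3, limma 3.58.1, DESeq2 1.42.0) with TMM scaling, quasi-likelihood F tests and 1 mean for each of 4 groups. P-values were adjusted over 13348 genes. The SE is the size of the log2 fold change over the square root of F. On simulated data for CTK-2 versus CTL on 13348 genes, 84% of 2-fold and 97% of 4-fold changes were called, with 3 false calls. The simulation changed a small share of genes, as many up as down, whereas the real data had more genes called higher than lower. It held no change under 2-fold, so it does not describe Acot7, Aacs or Hadh.

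Symbols were joined to identifiers for 1746 of 1786 entries of the study's list by mean count within a relative tolerance of 1e-04. Of the joined entries, 1105 had 1 gene within that tolerance, which at least had to share the sign of the study's log2 fold change. Where several genes lay within it, the gene whose CTK-2 versus CTL log2 fold change was close to the study's value was taken. For those symbols the join therefore used the fold change. Other genes carry no symbol here and were not analysed by name. Acot7 and Aacs each matched 1 gene by the mean alone. Of 1729 joined genes with a chromosome in RefSeq, 99.9% were on the same one. Promoter sequences of all 6 members are from RefSeq (GRCr8). No position was converted between builds.

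A few list and marker genes are not reported here and were left out of the counts. The members, lists and tests were chosen with earlier results of these data known. Named genes are the members, up to 3 genes of each list with the smallest p in CTK-2 versus CTL and up to 2 in CTK2+GAL versus CTK-2, family genes, and the 2 nearest profiles of each member. Alternatives were DESeq2, limma voom, other scalings and filters, 2 groups only, a replicate block, no fold change threshold and each library left out. CTL and GAL libraries of the same replicate number deviated together (r from 0.258 to 0.596 between deviations from the group means). CTL replicate 1 with GAL replicate 2, at 0.233, and CTL replicate 2 with GAL replicate 1, at 0.149, also did. Only replicate 3 stood apart, with r from -0.436 to -0.307 to replicates 1 and 2 of the other group. The data therefore do not establish that replicates 1 and 2 are paired by number. Same-numbered libraries of the other pairs of groups did not deviate together (r from -0.003 to 0.071).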

Additional observations from a re-analysis of the deposited data

How the results depend on the processing

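The counts of reads limit Slc27a6 most, with 1 to 4 counts in each library with cytokines, and the 3 libraries of a group limit every interval. Genes without a symbol were not analysed by name, so the pathway counts hold called genes only.

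All 6 genes kept their direction in both cytokine comparisons under all 22 alternatives run for each, and Mgll, Slc27a6, Ehhadh, Hadh and Aacs also kept their calls. Acot7 did not, as given with its values. Without 1 library, the members called ran from 5 to 6 in both comparisons, and the genes called ran from 2117 to 2515 in CTK-2 versus CTL and from 2032 to 2412 in CTK2+GAL versus GAL, beside 2311 and 2324. With no fold change threshold, 5213 and 5290 genes were called. DESeq2 called 2104 and 2108. With no filter on low counts, 2 genes were called in GAL versus CTL, 4 in the interaction and 1 for galinex over both backgrounds, where the filtered fit called 0. Without replicate 3 of CTL and of GAL, an alternative added after seeing the data, 3 genes were called in GAL versus CTL and 6 in the interaction. No member was among the genes called in any galinex comparison under any alternative. With the replicate block, 2320 and 2321 genes were called in the cytokine comparisons and 0 in the others, and the members called stayed at 6 and 5. Pairing the CTL and GAL libraries alone, also added after seeing the data, gave 0 calls, so the block changed no call of a member. In that fit Mgll had a log2 fold change of -0.086 (SE 0.070, adjusted p = 0.99), lower in GAL in 3 of 3 same-numbered pairs. Ehhadh, at -0.147 (SE 0.091), was also lower in 3 of 3 pairs, and Acot7, at 0.146 (SE 0.090), in 0 of 3. Slc27a6, Hadh and Aacs were each lower in 1 of 3 pairs. The data do not establish that pairing for replicates 1 and 2.

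Values near 0 changed sign. Leaving out 1 library gave CTK2+GAL versus CTK-2 log2 fold changes of -0.0458 to 0.0586 for Mgll, -0.784 to 0.513 for Slc27a6 and -0.0659 to 0.106 for Ehhadh. In GAL versus CTL it gave -0.282 to 0.0862 for Mgll, -0.145 to 0.489 for Slc27a6, -0.0153 to 0.163 for Hadh and -0.0230 to 0.0573 for Aacs. The interaction ran from -0.0757 to 0.292 for Mgll, from -0.887 to 0.410 for Slc27a6 and from -0.0957 to 0.0828 for Hadh. Galinex over both backgrounds ran from -0.136 to 0.0484 for Mgll and from -0.341 to 0.308 for Slc27a6. For Slc27a6, limma voom gave -0.0300 in GAL versus CTL and -0.171 over both backgrounds, and over both backgrounds filterByExpr gave -0.000853 and total counts -0.000523. The cause was not tested.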
